A study of Mus musculus with 8 samples.

Results

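The tumour necrosis factor (TNF) superfamily was followed across 8 microarrays of mouse blood progenitors as the 30 genes whose name in the array annotation begins with Tnfsf (10 ligands) or Tnfrsf (20 receptors). The members were chosen by name alone, and superfamily genes with other symbols, such as Cd40, are not among them. Of the 30 members, 26 had a probe that was well above background on at least 2 arrays and were tested among 16309 genes, and 22 were well above background on all 8 arrays. Tnfsf12, Tnfsf18, Tnfrsf8 and Tnfrsf17 were well above background on 0 of 8 arrays and were not tested.

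All groups consisted of Ebf1-/- cells of the C57Bl/6 background that were taken from fetal liver, enriched for the stem cell factor receptor c-Kit and cultured on OP9, a stromal line from mouse bone marrow used to feed lymphoid cultures. Cytokines were added to every culture: interleukin 7 at 5 ng/ml, and stem cell factor and Flt3 ligand at 10 ng/ml each. A pMys retrovirus delivered GFP together with the H240A form of EBF1 (Ebf1-H240A, 3 arrays) or with wild-type EBF1 (Ebf1wt, 3 arrays), or GFP alone (Empty, 2 arrays), and RNA was taken from GFP-positive cells sorted 36 h after transduction. EBF1 was thus made from a viral vector in cells whose own Ebf1 gene is disrupted, and the comparisons ask what wild-type EBF1 changes and how the H240A form, which carries alanine in place of a histidine and is known to bind the CCR4-NOT subunit CNOT3 poorly, differs from it.

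TNF superfamily ligands are trimers on the cell surface or in solution, and they bind receptors built from cysteine-rich repeats. Receptors with a death domain recruit adaptors such as FADD and TRADD and can start caspase-driven cell death, other receptors bind TRAF adaptors and activate NF-kB, and decoy receptors bind ligand without signalling. In B lymphocytes the ligand BAFF (Tnfsf13b) and its receptors BAFF-R (Tnfrsf13c) and TACI (Tnfrsf13b) are known for their part in survival and immunoglobulin responses, and EBF1 is a transcription factor needed for commitment to that lineage.

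The 75th percentile of the processed intensity was 232 to 326 before scaling, 54.6% to 59.6% of the probes on an array passed as well above background, and no (0) spot was saturated. Arrays of a group correlated at r = 0.991 to 0.995 across genes, which are not independent replicates. The labels do not say that replicates were separate cultures, so p-values measure only the spread between these arrays, which may be technical. Of the markers of the labelled cell, Kit, Ptprc, Flt3, Il7r and Cd34 were well above background on every array, and their summed intensity was 21900 to 22900 with Ebf1-H240A, 18400 to 19800 with Ebf1wt and 34200 to 36000 with Empty. Kit, Il7r and Cd34 were called lower with each form than with Empty, Flt3 was lower with Ebf1-H240A and higher with Ebf1wt, and Ptprc was not called. The Ebf1 probe read log2 signals of 10.15 to 10.44 with Ebf1-H240A, 10.17 to 10.19 with Ebf1wt and 10.10 to 10.19 with Empty, and it was not used to check the labels. Markers of other cells also moved with the vector. The summed intensity of 7 B-lineage markers was 28000 to 31800 with Ebf1-H240A, 53700 to 60500 with Ebf1wt and 771 to 840 with Empty; 6 of the 7 were higher with Ebf1-H240A and 7 of 7 with Ebf1wt than with Empty. That of 8 T and innate lymphoid markers was 3210 to 3450 with Ebf1-H240A, 3660 to 3680 with Ebf1wt and 8810 to 9230 with Empty. With each form 6 of these 8 were lower than with Empty, Cd3e was not called, and Cd8a was at least 20.2-fold higher with Ebf1-H240A and at least 23.0-fold higher with Ebf1wt. Of the B-lineage sum Cd79b made up 84.3% to 87.0% with Ebf1-H240A, 35.5% to 42.7% with Ebf1wt and 87.8% to 89.7% with Empty. Without Cd79b that sum was 3870 to 4990 with Ebf1-H240A, 31400 to 39000 with Ebf1wt and 86.6 to 94.2 with Empty. The stromal, myeloid and erythroid sums were led by a single gene in every group. For stromal cells, 14 of 18 markers were measured, and their sum, 79.7% to 88.3% of it Acta2, was 14200 to 15400 with Ebf1-H240A, 12200 to 14700 with Ebf1wt and 10000 to 10500 with Empty; 8 of the 14 were higher and 0 lower with Ebf1-H240A, 5 were higher and 0 lower with Ebf1wt, and Pdgfra, Lum, Thbs1 and Postn were not well above background on at least 2 arrays. For myeloid cells, 7 of 8 were measured and summed to 144000 to 162000 with Ebf1-H240A, 145000 to 157000 with Ebf1wt and 115000 to 122000 with Empty, 77.0% to 87.9% of it Ly6c2. Itgam, Mpo, Fcgr3 and Cd14 were lower with each form, and 3 myeloid markers were higher with Ebf1-H240A and 2 with Ebf1wt. For erythroid cells, 3 of 6 were measured and summed to 826 to 913 with Ebf1-H240A, 1190 to 1330 with Ebf1wt and 8270 to 9220 with Empty, mostly Hbb-bt (78.9% to 99.7%). Hbb-bt and Epor were lower with each form, while Alas2 was at least 23.4-fold higher with Ebf1-H240A and at least 43.6-fold higher with Ebf1wt. Of 6 hepatocyte markers only Ahsg was measured, at 49.4 to 51.3 with Ebf1-H240A, 153 to 184 with Ebf1wt and 516 to 528 with Empty, and it was lower with Ebf1-H240A than with Ebf1wt and with each form than with Empty. In these bulk samples, fewer cells of a type and less RNA per cell cannot be told apart, and the part of these cells in the results below was not tested.

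Wild-type EBF1 was accompanied by higher BAFF-R, TACI, GITR (Tnfrsf18) and Tnfrsf23 signals and by lower signals of CD30 ligand (Tnfsf8), CD137 (Tnfrsf9) and RANK (Tnfrsf11a). These 7 genes were also called in Ebf1-H240A over Empty, in the same directions, with a higher GITR signal and a lower BAFF-R signal than Ebf1wt. The RANK calls over Empty rest on a dim probe, well above background on 4 arrays. Both were lost with another background correction (normexp). A level here is the log2 of a probe's processed intensity after scaling each array to a common 75th percentile, and a difference is the first-named group minus the other, with the standard error (SE) of the fit. Levels of different probes are not comparable. A gene was called when its Benjamini-Hochberg adjusted p in limma, over all genes tested, was under 0.05. Among the 26 tested members 13 were called in Ebf1wt over Empty, 6 higher and 7 lower, where 38.4% of all genes were called (17.2% higher and 21.3% lower). In Ebf1-H240A over Empty 17 members were called, 11 higher and 6 lower, against 44.6% of all genes (21.6% higher and 23.0% lower). In Ebf1-H240A over Ebf1wt 5 members were called, 3 higher and 2 lower, against 6.36% of all genes (3.64% higher and 2.72% lower). As shares of the tested members these counts were 65.4% for Ebf1-H240A over Empty, 50.0% for Ebf1wt over Empty and 19.2% for Ebf1-H240A over Ebf1wt. The median log2 difference of the members was 0.09, -0.06 and -0.03 in the same order of comparisons, against 0.00, -0.04 and 0.02 for all genes. The median absolute difference was 0.53, 0.41 and 0.24 for the members and 0.31, 0.27 and 0.13 for all genes. The comparisons with Empty share the same 2 Empty arrays, so their values are given side by side. Altogether 18 members were called in at least 1 comparison and 4 (Tnfrsf18, Tnfrsf21, Tnfrsf13c and Tnfrsf11a) in all 3. The matching shares of all genes were not computed, so these counts are a description only. Calls of Tnfrsf21 and Tnfrsf11a were lost under some of the alternatives given below.

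**Figure D1:**
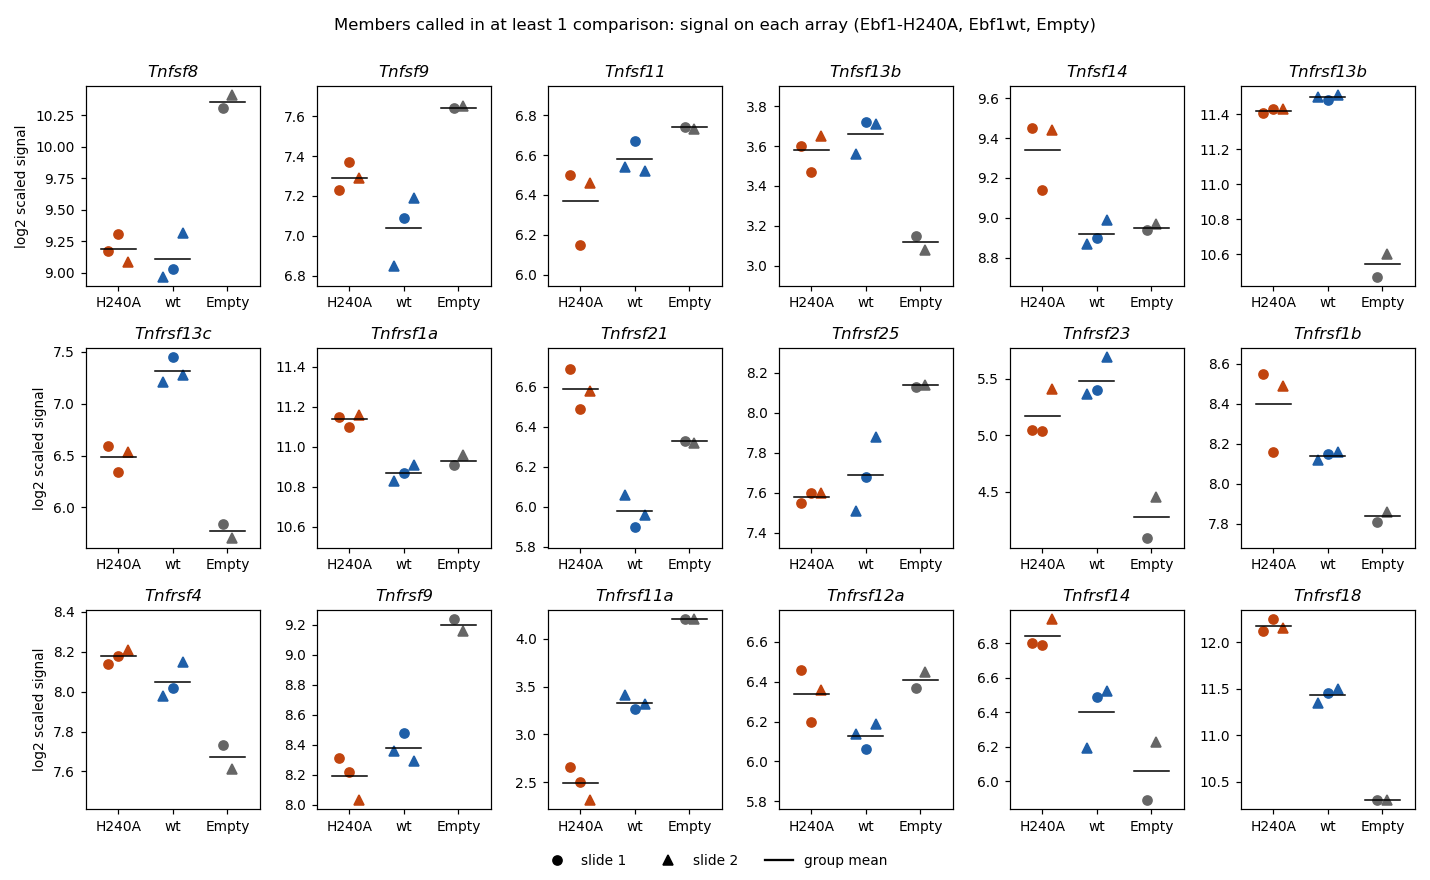
Scaled log2 signal of the 18 called members on each array, with Ebf1-H240A, Ebf1wt and Empty from left to right in every panel; circles are arrays of slide 1, triangles arrays of slide 2, lines group means, and each panel has its own axis. Tnfrsf18 stands highest with Ebf1-H240A and lowest with Empty, Tnfrsf13c stands highest with Ebf1wt, and Tnfrsf21 lies below Empty with Ebf1wt and above it with Ebf1-H240A.

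Promoter windows of RefSeq genes (build GRCm38.p6, 250 bases before to 50 after the annotated start) were searched for the core of the EBF1 motif, CCCNNGGG, which is its own reverse complement, so 1 search covers both strands. The core was present in 4491 of 32851 windows (13.7%). Windows were found for 23 of the 30 members, 27 windows in all, and 3 of the 27 held the core, in Tnfsf18, Tnfrsf25 and Tnfrsf14. The windows of the called members Tnfrsf25 and Tnfrsf14 are shown because they are the called members' windows that hold it, with the core in capitals. The Tnfrsf25 window, 1 of 2 for that gene, is chr4:152115684-152115983 on the + strand, and the Tnfrsf14 window is chr4:154928028-154928327 on the - strand.
Tnfrsf25: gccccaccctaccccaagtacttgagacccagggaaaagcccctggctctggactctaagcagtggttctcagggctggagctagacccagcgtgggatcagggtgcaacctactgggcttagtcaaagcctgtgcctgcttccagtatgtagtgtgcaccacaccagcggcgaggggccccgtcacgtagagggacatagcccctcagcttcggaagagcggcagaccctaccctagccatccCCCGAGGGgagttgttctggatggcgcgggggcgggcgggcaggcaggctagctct
Tnfrsf14: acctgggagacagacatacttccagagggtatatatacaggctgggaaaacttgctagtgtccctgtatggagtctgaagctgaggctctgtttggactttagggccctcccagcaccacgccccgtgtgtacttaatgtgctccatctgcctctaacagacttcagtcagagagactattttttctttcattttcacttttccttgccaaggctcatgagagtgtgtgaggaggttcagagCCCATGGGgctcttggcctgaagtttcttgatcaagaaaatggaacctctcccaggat
The core begins 6 bases before the start in Tnfrsf25 and 8 bases before it in Tnfrsf14. A match describes these letters only. The windows of the members with the largest differences, among them Tnfrsf13c, Tnfrsf18, Tnfrsf23 and Tnfsf8, did not contain these letters.

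Among the ligands, 8 of 10 were tested. With Ebf1wt 1 rose, 2 fell and 5 did not pass, and with Ebf1-H240A 2 rose, 3 fell and 3 did not pass, both over Empty, which is 62.5% with Ebf1-H240A (44.6% of all genes) and 37.5% with Ebf1wt (38.4% of all genes). Between the EBF1 forms 0 of 8 were called in limma, with 2 of the 8 (25.0%, against 22.8% of all genes) at an unadjusted p under 0.05, and Tnfsf14 came nearest to a call at an adjusted p of 0.0503. The ligand median was -0.36 with Ebf1-H240A and -0.29 with Ebf1wt.

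Tnfsf8 encodes CD30 ligand and had the largest called fall among the ligands. Its probe (mm9 chromosome 4, 63494489 to 63494548) read log2 signals of 9.17, 9.31 and 9.09 with Ebf1-H240A, 8.97, 9.03 and 9.32 with Ebf1wt, and 10.31 and 10.41 with Empty. The arrays of the EBF1 forms overlapped and lay below both Empty arrays. It fell 2.25-fold with Ebf1-H240A (-1.17 ± 0.12 SE, adjusted p = 3.85e-04) and 2.38-fold with Ebf1wt (-1.25 ± 0.12 SE, adjusted p = 3.55e-04). Its receptor gene Tnfrsf8 (CD30) was among the untested members.

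Tnfsf9 encodes the ligand of CD137, a costimulatory receptor of T cells. On chromosome 17, 57246520 to 57246579, its signals were 7.23, 7.37 and 7.29 with Ebf1-H240A, 6.85, 7.09 and 7.19 with Ebf1wt, and 7.64 and 7.65 with Empty. Every EBF1 array was below both Empty arrays, and the Ebf1-H240A arrays were above the Ebf1wt arrays. It fell with Ebf1-H240A (-0.35 ± 0.11, adjusted p = 0.0330) and with Ebf1wt (-0.60 ± 0.11, adjusted p = 0.00469). The difference between the EBF1 forms was 0.25 ± 0.09 and was not called (adjusted p = 0.176). The Ebf1-H240A call was lost without Empty 1, Empty 2, Ebf1wt 2, Ebf1-H240A 1 or Ebf1-H240A 3 (-0.36 to -0.32, adjusted p = 0.0529 to 0.123), and in all under 7 of the 17 alternatives that used more than a single slide.

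Tnfsf13b encodes BAFF. Its brighter probe (chromosome 8, 10037383 to 10037442) read 3.60, 3.47 and 3.65 with Ebf1-H240A, 3.56, 3.72 and 3.71 with Ebf1wt, and 3.15 and 3.08 with Empty, close to the lowest signals that were well above background (2.06 to 3.03 by array). All 6 EBF1 arrays were above both Empty arrays. It rose by 0.46 ± 0.08 with Ebf1-H240A (adjusted p = 0.00433) and by 0.55 ± 0.08 with Ebf1wt (adjusted p = 0.00260). The second BAFF probe, well above background on 5 arrays, differed by 0.11 ± 0.30 with Ebf1-H240A (adjusted p = 0.804) and 0.06 ± 0.30 with Ebf1wt (adjusted p = 0.896) in a fit over all kept probes. Both calls were lost with normexp background correction, with the mean over probes and with the authors' deposited log2 values (3 of the 17 alternatives).

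Tnfsf14 encodes LIGHT, a ligand of the herpesvirus entry mediator and of the lymphotoxin beta receptor. Its probe (chromosome 17, 57329192 to 57329251) read 9.45, 9.14 and 9.44 with Ebf1-H240A, 8.87, 8.90 and 8.99 with Ebf1wt, and 8.94 and 8.97 with Empty. The Ebf1-H240A arrays were above all others, and Ebf1wt overlapped Empty. It rose with Ebf1-H240A (0.39 ± 0.11, adjusted p = 0.0230) and was not called with Ebf1wt (-0.03 ± 0.11, adjusted p = 0.849). The difference between the EBF1 forms was 0.42 ± 0.09 (adjusted p = 0.0503) and, with Ebf1-H240A 2 left out, 0.52 (adjusted p = 0.0159, called). The call against Empty was lost without either Empty array, Ebf1-H240A 1 or Ebf1-H240A 3 (0.34 to 0.40, adjusted p = 0.0636 to 0.0991), and in all under 7 of the 17 alternatives.

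Tnfsf11 encodes RANK ligand. Its signals (chromosome 14, 78677959 to 78678018) were 6.50, 6.15 and 6.46 with Ebf1-H240A, 6.54, 6.67 and 6.52 with Ebf1wt, and 6.74 and 6.73 with Empty, so the groups did not overlap although their gaps were small. It fell with Ebf1-H240A (-0.37 ± 0.11, adjusted p = 0.0384) and was not called with Ebf1wt (-0.16 ± 0.11, adjusted p = 0.313) or between the forms (-0.20 ± 0.10, adjusted p = 0.306). Of the 14 stromal markers 8 were higher and 0 lower with Ebf1-H240A than with Empty, and their part in this fall was not tested. The call was lost without Empty 1, Empty 2 or any of the 3 Ebf1wt arrays (-0.37 to -0.36, adjusted p = 0.0521 to 0.133), and in all under 10 of the 17 alternatives.

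The other ligands were not called. Tnfsf4, the OX40 ligand, ranged over 3.46 to 4.31 with Ebf1-H240A, 3.95 to 4.84 with Ebf1wt and 4.61 to 5.08 with Empty. Tnfsf10, which encodes TRAIL, ranged over 5.10 to 5.49 with Ebf1-H240A, 5.25 to 5.66 with Ebf1wt and 5.63 to 5.75 with Empty. Tnfsf15, a ligand of the death receptor Tnfrsf25, was well above background on 5 of 8 arrays and varied from 0.70 to 3.82 within Ebf1wt alone, and its difference of -1.31 ± 0.84 in Ebf1wt over Empty (adjusted p = 0.266) was the largest among members not called there.

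Of the receptors of BAFF and APRIL, both measured genes rose with each EBF1 form, and they differed in how the forms compared. Of all genes 21.6% rose with Ebf1-H240A and 17.2% with Ebf1wt. Tnfrsf17, which encodes BCMA of plasma cells, read 0.49 to 1.83 over all arrays and was not well above background on any.

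Tnfrsf13c, the gene of BAFF-R, had the largest called rise of any member with Ebf1wt (1.55), except with normexp background correction, where Tnfrsf18 rose by 1.04 and Tnfrsf13c by 1.01. Its probe (chromosome 15, 82052225 to 82052284) read 6.59, 6.34 and 6.53 with Ebf1-H240A, 7.21, 7.45 and 7.28 with Ebf1wt, and 5.84 and 5.70 with Empty. The 3 groups did not overlap, and Ebf1-H240A lay between the others. It rose 1.64-fold with Ebf1-H240A (0.72 ± 0.11, adjusted p = 0.00209) and 2.92-fold with Ebf1wt (1.55 ± 0.11, adjusted p = 9.17e-05). Ebf1-H240A was 1.78-fold lower than Ebf1wt (-0.83 ± 0.10, adjusted p = 0.00729), with -0.99 and -0.71 on slide 1 and slide 2. Over the alternatives this difference ran from -0.99 to -0.57, and the rise with Ebf1wt ran from 1.01, with normexp background correction, to 1.62. Of the 7 B-lineage markers 4 (Igll1, Vpreb1, Vpreb2 and Blk) were also lower with Ebf1-H240A than with Ebf1wt, and their part here was not tested.

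Tnfrsf13b encodes TACI, a receptor for BAFF and APRIL. Its brighter probe (chromosome 11, 60962499 to 60962558) read 11.41, 11.43 and 11.43 with Ebf1-H240A, 11.50, 11.48 and 11.51 with Ebf1wt, and 10.47 and 10.60 with Empty. All EBF1 arrays were above Empty. It rose 1.84-fold with Ebf1-H240A (0.88 ± 0.06, adjusted p = 6.18e-05) and 1.95-fold with Ebf1wt (0.96 ± 0.06, adjusted p = 5.28e-05). Between the EBF1 forms it differed by -0.08 ± 0.05 and was not called (adjusted p = 0.463). The second, dimmer probe rose by 0.81 ± 0.09 with Ebf1-H240A (adjusted p = 6.33e-04) and 0.85 ± 0.09 with Ebf1wt (adjusted p = 6.33e-04).

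Of the 4 receptors with a death domain, 2 rose and 1 fell with Ebf1-H240A, 2 fell with Ebf1wt, and 2 were higher with Ebf1-H240A than with Ebf1wt. Their differences against Empty were smaller than those of Tnfrsf13b and Tnfrsf13c, and 0 of 4 reached 2-fold in any comparison. Few genes did: 10.0%, 8.47% and 1.08% of all genes were called with at least a 2-fold difference, in the same order. Calls of any size were made for 44.6%, 38.4% and 6.36% of all genes, again in that order.

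Tnfrsf21, which encodes death receptor 6, was the 1 member called in opposite directions against Empty. Its probe (chromosome 17, 43225456 to 43225513) read 6.69, 6.49 and 6.58 with Ebf1-H240A, 6.06, 5.90 and 5.96 with Ebf1wt, and 6.33 and 6.32 with Empty. Empty lay between the EBF1 forms, and the groups did not overlap. It was higher with Ebf1-H240A than with Ebf1wt by 0.61 ± 0.07 (1.53-fold, adjusted p = 0.00729), with 0.69 on slide 1 and 0.57 on slide 2. Against Empty it rose by 0.26 ± 0.08 with Ebf1-H240A (adjusted p = 0.0377) and fell with Ebf1wt (-0.35 ± 0.08, adjusted p = 0.0145). Both of these calls were lost without Empty 1 and without Empty 2 (0.21 to 0.26, adjusted p = 0.0507 to 0.131 with Ebf1-H240A over the 6 arrays whose removal ended the call, which also included Ebf1wt 2, Ebf1wt 3, Ebf1-H240A 1 and Ebf1-H240A 3, and -0.35, adjusted p = 0.0643 and 0.0698 with Ebf1wt). A second probe was not called but had differences of the same signs (0.21 ± 0.12 with Ebf1-H240A and -0.24 ± 0.12 with Ebf1wt). Of the 17 alternatives, 14 ended the call of Ebf1-H240A over Empty, 5 that of Ebf1wt over Empty and 2 (normexp and the authors' deposited log2 values) that between the forms.

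Tnfrsf1a encodes TNF receptor 1, the main death-domain receptor of TNF. It read 11.15, 11.10 and 11.16 with Ebf1-H240A, 10.83, 10.87 and 10.91 with Ebf1wt, and 10.91 and 10.96 with Empty (chromosome 6, 125312376 to 125312435). The Ebf1-H240A arrays were above all others, and Ebf1wt met the Empty range. It rose 1.15-fold with Ebf1-H240A over Empty (0.21 ± 0.06, adjusted p = 0.0247) and 1.21-fold over Ebf1wt (0.27 ± 0.05, adjusted p = 0.0293), and was not called in Ebf1wt over Empty (-0.06 ± 0.06, adjusted p = 0.431). The difference of 0.21 was the smallest of all called differences of members. Leaving out any 1 of the 6 EBF1 arrays ended the call between the forms (0.25 to 0.29, adjusted p = 0.0530 to 0.104), and leaving out Empty 1, Empty 2, Ebf1-H240A 1 or Ebf1-H240A 3 ended the call against Empty (0.18 to 0.23, adjusted p = 0.0613 to 0.120). In all, 11 and 9 of the 17 alternatives ended these calls, between the forms and against Empty.

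Tnfrsf25, death receptor 3, is a receptor of the ligand encoded by Tnfsf15 and is known from T cells. Its brighter probe (chromosome 4, 151494156 to 151494215) read 7.55, 7.60 and 7.60 with Ebf1-H240A, 7.51, 7.68 and 7.88 with Ebf1wt, and 8.13 and 8.14 with Empty. All EBF1 arrays were below Empty, and the EBF1 forms overlapped. It fell with Ebf1-H240A (-0.55 ± 0.10, adjusted p = 0.00524) and with Ebf1wt (-0.45 ± 0.10, adjusted p = 0.0152); the Ebf1wt call was lost without Empty 1 or Empty 2 (-0.45 and -0.44, adjusted p = 0.0699 and 0.0705), and in all under 6 of the 17 alternatives. The second probe, well above background on 5 arrays, was not called. It differed by -0.69 ± 0.32 with Ebf1-H240A (adjusted p = 0.130) and by -0.12 ± 0.32 with Ebf1wt (adjusted p = 0.817). Of the T and innate markers 6 were lower, Cd8a higher and Cd3e not called with each form, and their part in the fall of Tnfrsf25 was not tested. Tnfrsf10b, a receptor of TRAIL, was not called and read 3.70 to 4.39 over the 8 arrays, and its 3 probes did not share a sign in Ebf1wt over Empty.

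Of the decoy receptors, 1 of 3 was called. This is 33.3% over Empty with each form, against 44.6% of all genes with Ebf1-H240A and 38.4% with Ebf1wt. Tnfrsf23, a mouse decoy receptor of TRAIL, read 5.05, 5.04 and 5.41 with Ebf1-H240A, 5.36, 5.40 and 5.69 with Ebf1wt, and 4.09 and 4.46 with Empty (chromosome 7, 150854429 to 150854488). The EBF1 forms overlapped and both lay above Empty. It rose 1.85-fold with Ebf1-H240A (0.89 ± 0.17, adjusted p = 0.00558) and 2.31-fold with Ebf1wt (1.20 ± 0.17, adjusted p = 0.00193), while the difference between the forms was -0.31 ± 0.15 (adjusted p = 0.288). Over the alternatives the rise ran from 0.37 to 1.08 with Ebf1-H240A and from 0.47 to 1.39 with Ebf1wt.

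Its neighbours on chromosome 7 are the decoy receptor Tnfrsf22 and Tnfrsf26, whose probes lie 31.0 kb and, from Tnfrsf22, a further 29.4 kb away. Tnfrsf22 read 5.83, 5.68 and 5.76 with Ebf1-H240A, 5.98, 6.09 and 6.05 with Ebf1wt, and 5.92 and 5.26 with Empty, and was not called. Its Empty arrays differed by more than the EBF1 groups did, and without Empty 1 it was called with Ebf1-H240A (0.50, adjusted p = 0.0109) and with Ebf1wt (0.78, adjusted p = 0.00313). Tnfrsf26 stayed between 8.66 and 8.90 on all 8 arrays, with differences of -0.05, -0.05 and 0.00 in the comparisons with Empty and between the forms, none of them called. The 3 genes are paralogs, and whether their probes cross-hybridise was not tested. Tnfrsf11b, which encodes osteoprotegerin, a soluble decoy of RANK ligand, was well above background on 2 of 8 arrays, 1 with Ebf1wt and 1 with Empty, and was not called.

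The 8 tested receptors that bind TRAF adaptors without a death domain moved in both directions. With Ebf1-H240A 4 rose, 2 fell and 2 did not pass, and with Ebf1wt 2 rose, 3 fell and 3 did not pass. Between the EBF1 forms 1 was higher, 1 was lower and 6 did not pass. Among all genes 21.6% rose and 23.0% fell with Ebf1-H240A, and 17.2% rose and 21.3% fell with Ebf1wt. Between the forms 3.64% of all genes were higher and 2.72% lower. Calls in both directions were thus not particular to these receptors.

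Tnfrsf18 encodes GITR, a costimulatory receptor best known from regulatory and activated T cells. Its probe (chromosome 4, 155402849 to 155402908) read 12.12, 12.25 and 12.15 with Ebf1-H240A, 11.35, 11.45 and 11.50 with Ebf1wt, and 10.30 and 10.30 with Empty. The 3 groups were apart, with Ebf1-H240A highest. It rose 3.67-fold with Ebf1-H240A (1.87 ± 0.07, adjusted p = 6.35e-06) and 2.19-fold with Ebf1wt (1.13 ± 0.07, adjusted p = 5.85e-05). Ebf1-H240A was 1.67-fold higher than Ebf1wt (0.74 ± 0.06, adjusted p = 0.00278), with 0.74 on slide 1 and 0.73 on slide 2. Of the 8 T and innate markers 6 were lower with each form than with Empty, Cd8a was higher and Cd3e was not called, and their part in this rise was not tested. The gene of GITR ligand, Tnfsf18, was among the untested members.

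Tnfrsf4, the gene of OX40, lies 12.2 kb from the Tnfrsf18 probe on chromosome 4, at 155390635 to 155390694. It read 8.14, 8.18 and 8.21 with Ebf1-H240A, 7.98, 8.02 and 8.15 with Ebf1wt, and 7.73 and 7.61 with Empty. All EBF1 arrays were above Empty, and the EBF1 forms overlapped. It rose by 0.50 ± 0.08 with Ebf1-H240A (adjusted p = 0.00195) and by 0.38 ± 0.08 with Ebf1wt (adjusted p = 0.00793; 0.32 and adjusted p = 0.0549 without Empty 2), a call that 3 of the 17 alternatives ended. The difference between the forms was 0.12 ± 0.07 and was not called (adjusted p = 0.347).

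Tnfrsf14 encodes the herpesvirus entry mediator, a receptor of LIGHT. Its brighter probe (chromosome 4, 154296274 to 154296333) read 6.80, 6.79 and 6.94 with Ebf1-H240A, 6.19, 6.49 and 6.52 with Ebf1wt, and 5.89 and 6.23 with Empty. The Ebf1-H240A arrays were above all others, and Ebf1wt overlapped Empty. It rose 1.72-fold with Ebf1-H240A (0.79 ± 0.14, adjusted p = 0.00398) and was not called with Ebf1wt (0.34 ± 0.14, adjusted p = 0.0980) or between the forms (0.44 ± 0.13, adjusted p = 0.0896). Without Ebf1wt 1 the Ebf1wt difference was 0.45 and was called (adjusted p = 0.0426). The second probe was called in all 3 comparisons, by 0.68 ± 0.07 in Ebf1-H240A over Empty (adjusted p = 4.68e-04), 0.29 ± 0.07 in Ebf1wt over Empty (adjusted p = 0.0205) and 0.39 ± 0.06 in Ebf1-H240A over Ebf1wt (adjusted p = 0.0217).

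Tnfrsf1b encodes TNF receptor 2, which binds TRAF2. It read 8.55, 8.16 and 8.49 with Ebf1-H240A, 8.12, 8.15 and 8.16 with Ebf1wt, and 7.81 and 7.86 with Empty (chromosome 4, 144804304 to 144804363). The Ebf1-H240A array 2 was level with the highest Ebf1wt array and the other two were above it. It rose with Ebf1-H240A (0.56 ± 0.12, adjusted p = 0.00728) and was not called with Ebf1wt (0.31 ± 0.12, adjusted p = 0.0766) or between the forms (0.26 ± 0.10, adjusted p = 0.203). Without Ebf1-H240A 2, Ebf1wt over Empty (0.31, adjusted p = 0.0100) and Ebf1-H240A over Ebf1wt (0.37, adjusted p = 0.0286) were called. These values are from the brighter probe. The second probe, well above background on all 8 arrays, was not called in any comparison. It differed by 0.22 ± 0.11 with Ebf1-H240A (adjusted p = 0.157) and 0.15 ± 0.11 with Ebf1wt (adjusted p = 0.338). Between the forms it differed by 0.07 ± 0.10 (adjusted p = 0.746).

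Tnfrsf9 encodes CD137. Its signals (chromosome 4, 150319106 to 150319165) were 8.31, 8.22 and 8.03 with Ebf1-H240A, 8.36, 8.48 and 8.29 with Ebf1wt, and 9.24 and 9.16 with Empty. Every EBF1 array was lower than Empty, and the forms overlapped. It fell 2.02-fold with Ebf1-H240A (-1.02 ± 0.10, adjusted p = 3.28e-04) and 1.77-fold with Ebf1wt (-0.82 ± 0.10, adjusted p = 0.00102).

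Tnfrsf11a encodes RANK, the receptor of RANK ligand. Its brighter probe (chromosome 1, 107743752 to 107743811) read 2.66, 2.50 and 2.31 with Ebf1-H240A, 3.41, 3.27 and 3.32 with Ebf1wt, and 4.21 and 4.21 with Empty, and it was well above background on 0 of 3, 2 of 3 and 2 of 2 arrays of these groups. The groups did not overlap, but Ebf1-H240A gives only a bound: the fall was at least 3.02-fold against Empty (adjusted p = 3.82e-05) and at least 1.63-fold against Ebf1wt (adjusted p = 0.00599). Such a bound sets the bright group's mean against the mean of the higher of the dim signal and the lowest signal well above background on each array. With Ebf1wt it fell 1.85-fold (-0.88 ± 0.11, adjusted p = 9.29e-04). The second RANK probe, well above background on 4 arrays, differed by -0.93 ± 0.48 with Ebf1-H240A (adjusted p = 0.164), by -0.15 ± 0.48 with Ebf1wt (adjusted p = 0.836) and by -0.77 ± 0.43 between the forms (adjusted p = 0.358). With normexp background correction the differences shrank to -0.07, -0.01 and -0.06 in that order, and none of them was called; the mean over probes and the authors' deposited log2 values also ended the call with Ebf1wt and between the forms.

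Tnfrsf12a encodes Fn14, the receptor of TWEAK, and was called in Ebf1wt over Empty alone. It read 6.46, 6.20 and 6.36 with Ebf1-H240A, 6.14, 6.06 and 6.19 with Ebf1wt, and 6.37 and 6.45 with Empty (chromosome 17, 23812746 to 23812805). The Ebf1wt arrays lay below Empty, and Ebf1-H240A overlapped it. The fall with Ebf1wt was small (-0.28 ± 0.09, adjusted p = 0.0480), and it was lost without Empty 1, Empty 2, any Ebf1wt array or Ebf1-H240A 3 (-0.32 to -0.24, adjusted p = 0.0651 to 0.200), and in all under 11 of the 17 alternatives. Tnfrsf19, known as TROY, was well above background on 3 of 8 arrays, 0 of them with Ebf1-H240A, and was not called in any comparison (-1.24, adjusted p = 0.0401 in Ebf1-H240A over Empty without Empty 2).

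**Figure D2:**
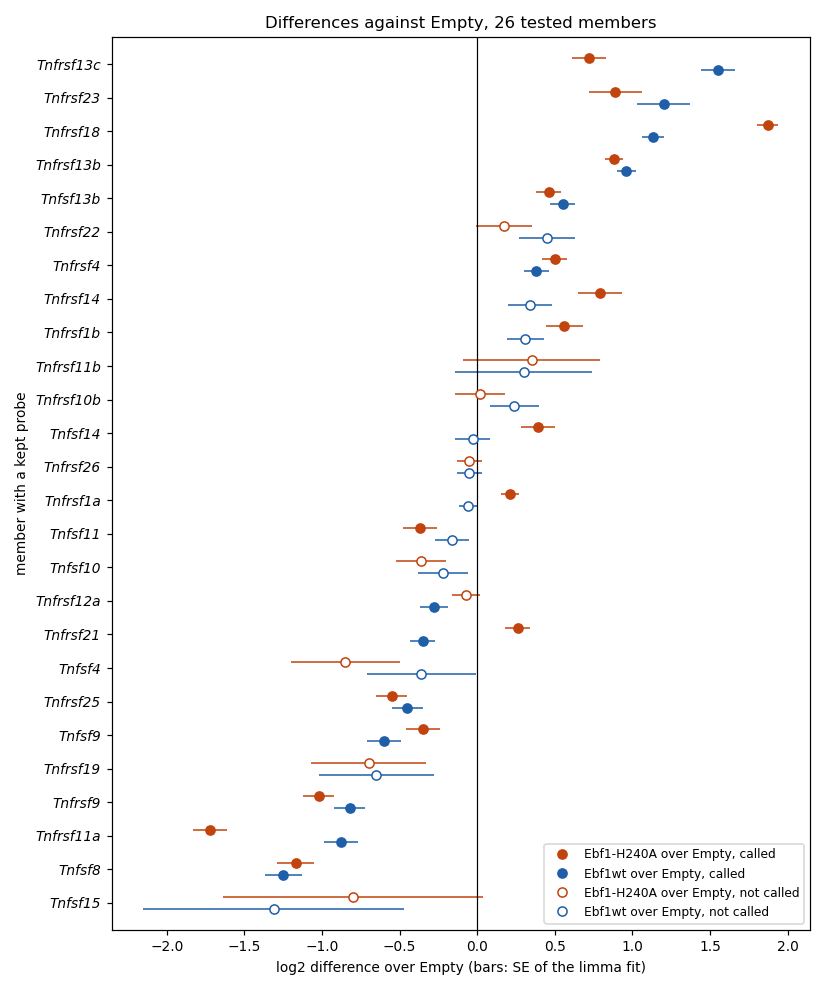
Log2 difference over Empty of the 26 tested members with Ebf1-H240A (upper point of each row) and Ebf1wt (lower point), sorted by Ebf1wt; bars are the SE of the limma fit, filled points are called, and both comparisons use the same 2 Empty arrays. Tnfrsf13c leads with Ebf1wt at 1.55 and Tnfrsf18 with Ebf1-H240A at 1.87, and the point of Tnfrsf11a with Ebf1-H240A rests on arrays not well above background.

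**Figure D3:**
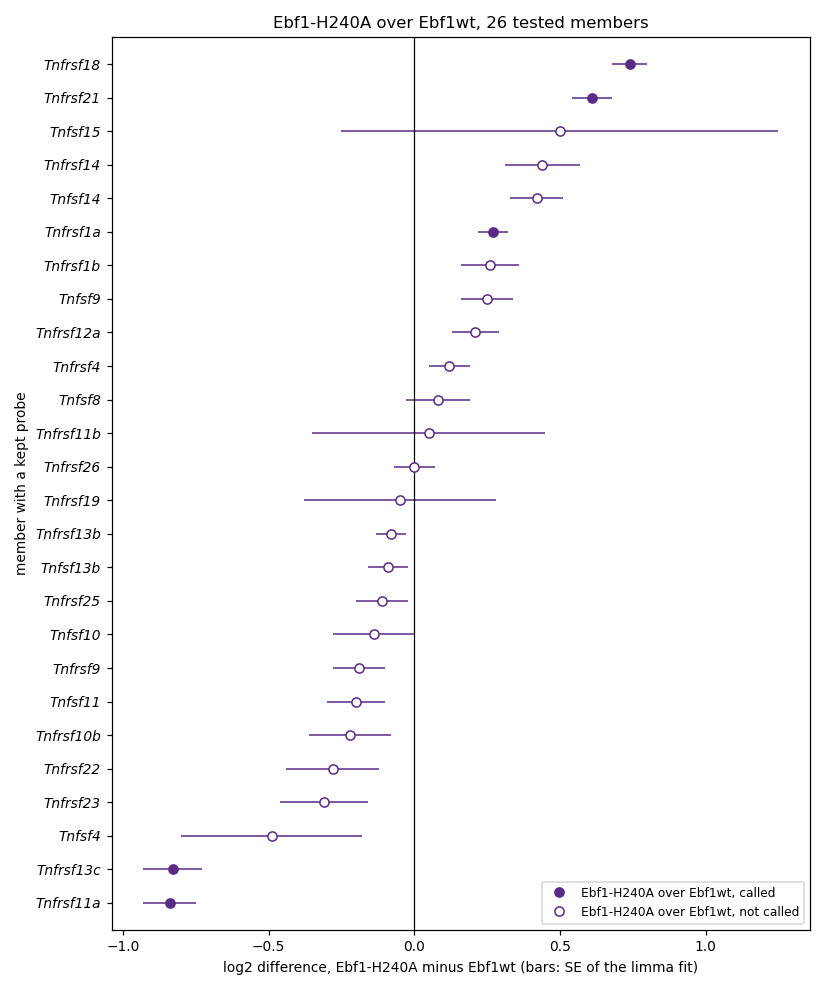
Log2 difference of Ebf1-H240A minus Ebf1wt for the 26 tested members, with the SE of the limma fit as bars and called members filled. The called members run from -0.84 (Tnfrsf11a) and -0.83 (Tnfrsf13c) to 0.27 (Tnfrsf1a), 0.61 (Tnfrsf21) and 0.74 (Tnfrsf18).

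Arranged as ligand and receptor, the measured members moved together in some cases and apart in others. The CD137 ligand (Tnfsf9) and CD137 (Tnfrsf9) both fell with each EBF1 form. BAFF (Tnfsf13b) and its receptors Tnfrsf13c and Tnfrsf13b rose with each form. LIGHT (Tnfsf14) and its receptor Tnfrsf14 rose with Ebf1-H240A, and RANK ligand (Tnfsf11) and RANK (Tnfrsf11a) fell with it. In contrast, OX40 (Tnfrsf4) rose with both forms while the OX40 ligand (Tnfsf4) was not called (-0.85 ± 0.35, adjusted p = 0.0925 with Ebf1-H240A, and -0.36 ± 0.35, adjusted p = 0.468 with Ebf1wt). GITR rose and CD30 ligand fell where the partner, Tnfsf18 or Tnfrsf8, was not well above background. Tnfrsf23 rose and Tnfrsf25 fell with each form, while their ligands Tnfsf10 and Tnfsf15 were not called. Several of the shared directions rest on calls that some of the 17 alternatives outside single slides ended. The Tnfsf13b calls were ended by 3. With Ebf1-H240A, the calls of Tnfsf9 and Tnfsf14 were each ended by 7 and that of Tnfsf11 by 10. The RANK calls came from a dim probe and were lost with normexp background correction. No test of pairs was made.

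Position on the chromosomes was a further feature the names did not fix. Chromosome 4 held 9 of the 30 members, and some neighbours there shared a direction. Tnfrsf4 and Tnfrsf18, with probes 12.2 kb apart, rose with each form. Tnfrsf9 and Tnfrsf25, 1175.0 kb apart, fell with each form. Tnfrsf14, which lies between these pairs, 2802.1 kb from Tnfrsf25 and 1094.4 kb from Tnfrsf4, rose with Ebf1-H240A. Other close neighbours there did not share a call. Tnfsf8 fell while Tnfsf15, 103.5 kb away, was not called, and Tnfrsf8, 78.3 kb from Tnfrsf1b, was not tested. Whether position plays a part was not tested. On chromosome 17 the probes of Tnfsf9 and Tnfsf14 were 82.7 kb apart, and with Ebf1-H240A Tnfsf9 fell while Tnfsf14 rose. Each of these calls on chromosome 17 was ended by 7 of the 17 alternatives outside single slides. On chromosome 4 the Ebf1wt calls of Tnfrsf25 and Tnfrsf4 were ended by 6 and 3 of them.

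Superfamily genes under other symbols were read from a separate list of 15, of which 11 were measured. With Ebf1-H240A 6 rose and 3 fell, and with Ebf1wt 5 rose and 3 fell, both over Empty; between the forms 2 were higher and 1 was lower with Ebf1-H240A. The called shares were 81.8%, 72.7% and 27.3% in the order Ebf1-H240A over Empty, Ebf1wt over Empty and between the forms, against 44.6%, 38.4% and 6.36% of all genes. Cd40, the costimulatory receptor of B cells, read 10.48, 10.30 and 10.59 with Ebf1-H240A, 10.31, 10.53 and 10.52 with Ebf1wt, and 6.95 and 7.14 with Empty. It rose by 3.41 ± 0.12 with each form (adjusted p = 4.14e-06 with Ebf1-H240A and 4.43e-06 with Ebf1wt), more than any member with a Tnfrsf or Tnfsf name, and the forms overlapped (0.00 ± 0.10, adjusted p = 0.993). Fas, a death receptor, rose by 1.70 ± 0.10 with Ebf1-H240A (adjusted p = 3.80e-05) and 1.34 ± 0.10 with Ebf1wt (adjusted p = 1.45e-04). Cd27, a costimulatory receptor of lymphocytes and early progenitors, fell with Ebf1-H240A (-1.72 ± 0.08, adjusted p = 1.17e-05) and with Ebf1wt (-1.31 ± 0.08, adjusted p = 4.52e-05), and was lower with Ebf1-H240A than with Ebf1wt (-0.41 ± 0.07, adjusted p = 0.0216). Fasl, the ligand of Fas, fell with Ebf1-H240A (-1.59 ± 0.52, adjusted p = 0.0423) and at least 2.38-fold with Ebf1wt (adjusted p = 0.0269), where it was not well above background.

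The soluble ligands TNF and lymphotoxin alpha stood apart between the EBF1 forms. Tnf read 9.73, 9.72 and 9.90 with Ebf1-H240A, 9.24, 9.17 and 9.35 with Ebf1wt, and 9.22 and 9.26 with Empty, and Ebf1-H240A was above Ebf1wt by 0.53 ± 0.08 (adjusted p = 0.0124). Lta read 10.16, 10.30 and 10.11 with Ebf1-H240A, 9.47, 9.55 and 9.72 with Ebf1wt, and 8.88 and 8.84 with Empty. It rose by 1.33 ± 0.09 with Ebf1-H240A (adjusted p = 7.47e-05) and by 0.72 ± 0.09 with Ebf1wt (adjusted p = 0.00136), and by 0.61 ± 0.08 between the forms (adjusted p = 0.0112). Both are ligands of Tnfrsf1a and Tnfrsf1b, whose values are given above. Ngfr, the p75 neurotrophin receptor, rose with Ebf1-H240A (0.56 ± 0.15, adjusted p = 0.0213) and with Ebf1wt (0.91 ± 0.15, adjusted p = 0.00346). Its signals of 2.70 to 3.95 were well above background on 7 arrays. They lay close to the lowest signals that were well above background (2.06 to 3.03 by array).

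All 27 genes of a list of adaptors and proximal signalling proteins were measured, and their changes were smaller. With Ebf1-H240A 7 rose and 4 fell, with Ebf1wt 4 rose and 6 fell, and between the forms 2 were higher and 0 lower with Ebf1-H240A in limma (0 lower at an unadjusted p under 0.05 too); 0 of the 27 reached 2-fold in any comparison. The called shares were 40.7% with Ebf1-H240A, 37.0% with Ebf1wt and 7.41% between the forms, near the 44.6%, 38.4% and 6.36% of all genes. Of all genes 10.0%, 8.47% and 1.08% were called with at least a 2-fold difference, in the same order. The median absolute difference was 0.17 with Ebf1-H240A and 0.15 with Ebf1wt, against 0.31 and 0.27 for all genes. Casp8, the initiator caspase below the death receptors, rose by 0.94 ± 0.09 with Ebf1-H240A (adjusted p = 3.07e-04) and 0.92 ± 0.09 with Ebf1wt (adjusted p = 4.06e-04), while Fadd, the adaptor that joins it to those receptors, fell with Ebf1-H240A (-0.63 ± 0.06, adjusted p = 2.15e-04) and with Ebf1wt (-0.82 ± 0.06, adjusted p = 8.39e-05). Traf1 rose by 0.95 ± 0.13 with Ebf1-H240A (adjusted p = 0.00143) and 0.63 ± 0.13 with Ebf1wt (adjusted p = 0.0101), and Traf5 fell with Ebf1-H240A (-0.56 ± 0.09, adjusted p = 0.00225) and with Ebf1wt (-0.42 ± 0.09, adjusted p = 0.00935). Traf2 rose by 0.37 ± 0.10 with Ebf1-H240A (adjusted p = 0.0241) and by 0.44 ± 0.10 with Ebf1wt (adjusted p = 0.0143), and TAK1-binding Tab1 fell with Ebf1wt (-0.44 ± 0.10, adjusted p = 0.0129). Traf3, an adaptor that restrains non-canonical NF-kB signalling, rose by 0.65 ± 0.10 with Ebf1-H240A over Empty (adjusted p = 0.00193) and by 0.41 ± 0.09 over Ebf1wt (adjusted p = 0.0410), and Cyld, a deubiquitinase of the pathway, was higher by 0.30 ± 0.06 with Ebf1-H240A than with Ebf1wt (adjusted p = 0.0353).

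The arrays came from 2 slides, each with arrays of all 3 groups, and the called differences were read within each slide. All 35 called differences of members had the same sign on slide 1, on slide 2 and over all arrays; they were called on both slides together, so their sign on each slide is a description and no independent support. The slides differed by a median of 0.13 on the log2 scale in Ebf1-H240A over Empty, 0.08 in Ebf1wt over Empty and 0.12 in Ebf1-H240A over Ebf1wt, and by at most 0.36, for Tnfrsf11a between the forms. A slide alone left 1 residual degree of freedom and few calls: 4 and 0 members on slide 1 and slide 2 in Ebf1-H240A over Empty, and 0 on each slide in the other comparisons. At an unadjusted p under 0.05 in limma, slide 1 and slide 2 gave 12 and 11 members in Ebf1-H240A over Empty, 12 and 9 in Ebf1wt over Empty, and 5 and 5 in Ebf1-H240A over Ebf1wt. Of all genes 36.1% and 25.6%, 26.5% and 24.2%, and 9.36% and 9.81% passed that threshold, in the same order, against 46.2% and 42.3%, 46.2% and 34.6%, and 19.2% and 19.2% of the 26 members. With slide as a block over all arrays 14 members were called in Ebf1-H240A over Empty, where Tnfrsf21 (0.27, adjusted p = 0.0545), Tnfsf11 (-0.37, adjusted p = 0.0609) and Tnfsf9 (-0.36, adjusted p = 0.0511) lost their calls. In Ebf1wt over Empty 12 were called, without Tnfrsf12a (-0.29, adjusted p = 0.0548), and in Ebf1-H240A over Ebf1wt 4, without Tnfrsf1a (0.28, adjusted p = 0.0622).

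**Figure D4:**
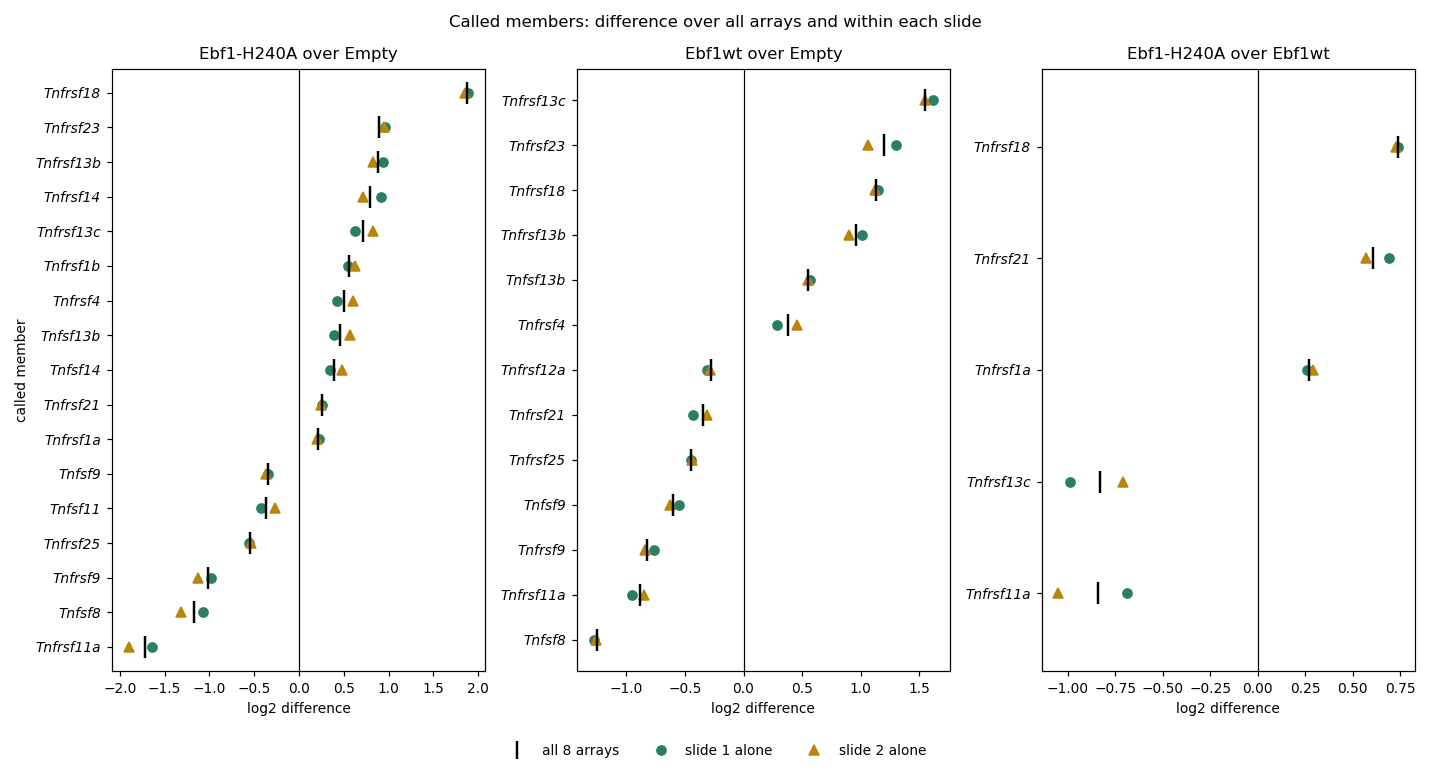
Log2 difference of each called member over all 8 arrays (bar), on slide 1 alone (circle) and on slide 2 alone (triangle), in a panel for each comparison. The 3 marks lie on the same side of 0 for all 35 called differences.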

How the data were processed

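Cy3-labelled cRNA was hybridised to 8 one-colour Agilent mouse arrays. Per the file headers, the deposited processed signal is a linear intensity from Agilent Feature Extraction 10.5.1.1 (version per the submitters' processing notes) with coordinates of mm9, beside deposited mean and background intensities and flags. The value table deposited by the authors holds log2 values, with medians of 4.90 to 4.93, the direction of the scanner values, and an unstated method and centring.

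Intensities were scaled to a common 75th percentile, floored at 1 and log2-transformed, without outlier spots. Of 41174 probes, 25007 were well above background on at least 2 arrays and were kept, and the brightest kept probe stood for a gene. Names were updated through RefSeq tables (GRCm38.p6; 27823 probes by accession, 5501 by symbol, 380 by older symbol). All arrays entered limma 3.58.1 (R 4.3.3) with group means, and the call threshold was 0.05 after Benjamini-Hochberg adjustment over all genes; the fit had 5 residual and 1.80 prior degrees of freedom. Fits over all kept probes gave second-probe values. Members, lists, naming rules (called members by array, others by range; of the 2 further lists, up to 5 called genes a comparison and Cd40) and alternatives were chosen with earlier results of these data known. The number of arrays limits the precision, and for dim probes so does the background.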

Additional observations from a re-analysis of the deposited data

Results flagged for a closer look

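The effects of the EBF1 forms differed, by limma's test of the difference itself, for 5 members. Ebf1-H240A minus Ebf1wt was -0.84 for Tnfrsf11a (with Ebf1-H240A arrays not well above background, so at least 1.63-fold lower), -0.83 for Tnfrsf13c, 0.74 for Tnfrsf18, 0.61 for Tnfrsf21 and 0.27 for Tnfrsf1a, each with the adjusted p given above. No group had the 4 arrays needed to look for an outlying array.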

How the results depend on the processing

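Each comparison was recomputed under 19 alternatives, and none of the 35 called differences of members changed sign (0 of 35). Of them 19 also stayed called under all 17 alternatives outside single slides: 10 of 17 in Ebf1-H240A over Empty, 7 of 13 in Ebf1wt over Empty and 2 of 5 (Tnfrsf18 and Tnfrsf13c) in Ebf1-H240A over Ebf1wt. With normexp background correction 8 members were called in Ebf1wt over Empty, 3 of them lower, and 3 in Ebf1-H240A over Ebf1wt, 1 of them lower; calls over all genes also fell, to 4386 in Ebf1wt over Empty (6264 with the processed signal) and 708 in Ebf1-H240A over Ebf1wt (1038). With the authors' deposited log2 values, 4 were lower in Ebf1wt over Empty and 2 were called in Ebf1-H240A over Ebf1wt, 1 higher and 1 lower, and over all genes there were 4585 and 652 calls. The filter on all 8 arrays and the mean over kept probes each left 1 member lower in Ebf1-H240A over Ebf1wt. Slide 1 alone gave 4 calls in Ebf1-H240A over Empty, 3 higher and 1 lower, and 0 calls in Ebf1wt over Empty and in Ebf1-H240A over Ebf1wt; slide 2 alone gave 0 calls in all comparisons. The cause was not tested, except that a slide alone holds fewer arrays.

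Leaving out 1 array gave 13 to 17 called members in Ebf1-H240A over Empty (8 to 11 higher, 4 to 6 lower), 9 to 14 in Ebf1wt over Empty (5 to 7 higher, 4 to 7 lower, the 4 without Empty 1 or Empty 2) and 4 to 6 in Ebf1-H240A over Ebf1wt (2 to 4 higher, 2 lower throughout); calls over all genes were 5424 to 7374, 4193 to 6025 and 365 to 839 in that order. With the replicate number as a replicate block 13, 12 and 4 members were called in that order. The deviations of same-numbered arrays from their group means correlated at -0.33 to 0.19. Deviations within such small groups are tied to each other, so these values cannot show whether the numbers pair the arrays. The labels do not pair them. Over all genes, Ebf1-H240A over Ebf1wt gave 338 calls with no filter on dim probes, 646 with slide as a block and 360 with the replicate block. On a single slide the calls over all genes were 1096 and 322 in Ebf1-H240A over Empty, 133 and 398 in Ebf1wt over Empty and 0 and 0 in Ebf1-H240A over Ebf1wt. Without a filter on dim probes, Ebf1wt over Empty had an all-gene median of 0.08, against -0.04 with it. Dim probes limit Tnfrsf11a, Tnfsf13b, Tnfsf15, Tnfrsf19 and Tnfrsf11b most, since their signals lie near the background.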
